A study of Drosophila melanogaster with 19 samples.

Results

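Chromosome 4 of Drosophila is a very small autosome, and the genes on it were followed here in S2R+ cells depleted of subunits of the dREAM complex. Members were all genes whose transcripts the deposited table places on chromosome 4, counting annotated transcripts, newly assembled isoforms and further overlaps with a gene, and leaving out ribosomal protein genes. This rule took no expression value and gave 93 genes of 15021 in the table, or 94 with the ribosomal protein gene RpS3A. S2R+ is an embryo-derived line with features of blood cells. Cells were bathed with double-stranded RNA (dsRNA) on each of 4 days at 25 °C, at 30 µg/ml without serum and then at 10 µg/ml with serum. The control group received dsRNA against GFP, a jellyfish protein that these cells lack, and the other groups received dsRNA against mip40, mip120, mip130 or E2F2. Each group had 2 RNA libraries except E2F2, which had 1 and took its error from the replicated groups, and all cells were otherwise of the same line without a named mutation. Nothing in the labels says that the 2 libraries of a group came from separate cultures, so the tests measure the spread between these libraries only.

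Most of chromosome 4 is packaged much like heterochromatin, with HP1a and methylated histone H3 along its length. Its genes are nevertheless transcribed, and the protein Pof binds their bodies together with the methyltransferase Egg. dREAM brings together a retinoblastoma protein, E2F, Myb and several Mip proteins, and is known for repressing genes of other cell types. Mip40, Mip120 and Mip130 belong to its Myb-containing core, and E2F2 is its repressive E2F.

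Levels are FPKM, which scale fragments to transcript length and to the mapped fragments of a library, so levels can be set side by side between genes. Changes are log2 differences of FPKM + 1 with the standard error (SE) of a limma model of all 9 libraries, and "past the test" means a limma adjusted p below 0.05 over 7835 tested genes. The depth of the libraries is unknown because the table holds no counts. Each dsRNA lowered its own target: mip40 fell from 32.5 ± 2.04 FPKM (SD, n = 2) to 1.29 ± 0.234, mip130 from 28.8 ± 1.50 to 4.73 ± 0.382, and mip120 from 49.1 ± 4.87 to 29.3 ± 1.07. E2f2 fell from 26.9 ± 1.51 to 2.54 in its only library. Blood cell markers were present in the control libraries (9 of 12 at an FPKM of 1 or more, summing to 418 to 435 FPKM), while all 5 muscle, all 4 fat body and all 4 gut markers stayed below 1. Of 5 neuron markers, 1 reached an FPKM of 1, and the neuron markers summed to between 23.9 and 41.2 FPKM over all libraries. Among the 5 germline markers, 3 reached an FPKM of 1, and the list summed to 44.5 to 50.2 FPKM in control cells. It summed to 57.0 to 57.6 in mip40, 54.4 to 54.7 in mip120, 74.1 to 80.6 in mip130 and 60.4 in E2F2 RNAi. These sums hold opposite moves: aub had 46.2 and 40.6 FPKM in control cells and 29.6 and 30.2 in mip120 RNAi. In mip120 RNAi the other germline markers were higher than in control cells, with nos going from 0.334 and 0.357 to 10.7 and 10.9. The blood cell markers summed to 420 to 427 FPKM in mip40, 363 to 368 in mip120, 405 to 410 in mip130 and 422 in E2F2 RNAi. Opposite moves lie within these sums as well. Pxn had 10.6 and 9.58 FPKM in control cells, 28.7 and 28.9 in mip40 and 42.5 in E2F2 RNAi. In contrast, crq had 173 and 154 in control cells and 131 and 134 in mip40 RNAi. Cg25C had 18.5 and 21.7 in control cells and 10.4 and 9.84 in mip120 RNAi. The part of these markers in the results was not tested.

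Of the 93 genes, 63 reached an FPKM of 1 in at least 2 libraries and were tested, 57 of them protein-coding and 6 non-coding. Another 27 had some signal without reaching that level in 2 libraries, and 3 (CG11231, CR43425 and mir-954) were listed at 0 in every library. In control cells 8 genes had a mean of 100 FPKM or more, 42 lay from 10 to 100, 9 from 1 to 10 and 34 below 1. The highest was ATPsyn-beta, the catalytic subunit of the mitochondrial ATP synthase, with 490 and 419 FPKM in the 2 control libraries. It was followed by CG11076 with 223 and 241, of which 173 and 189 belonged to a new isoform that overlaps ATPsyn-beta on the other strand, CG32850 (Rnf11, a RING finger protein) with 188 and 217, eIF4G, the scaffold of translation initiation, with 135 and 154, and the kinase CaMKII with 140 and 140. At the low end stood several developmental regulators: ci, the transcription factor of Hedgehog signalling, lay between 0 and 0.0708 FPKM over the 9 libraries, and the Pax6 gene toy between 0.0289 and 0.159. The muscle protein gene bt (projectin) did not exceed 0.0195. One small RNA stood alone: snoRNA:CD-24 was listed at 387 FPKM in the E2F2 RNAi library and at 0 in the other 8, and was not tested.

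**Figure D1:**
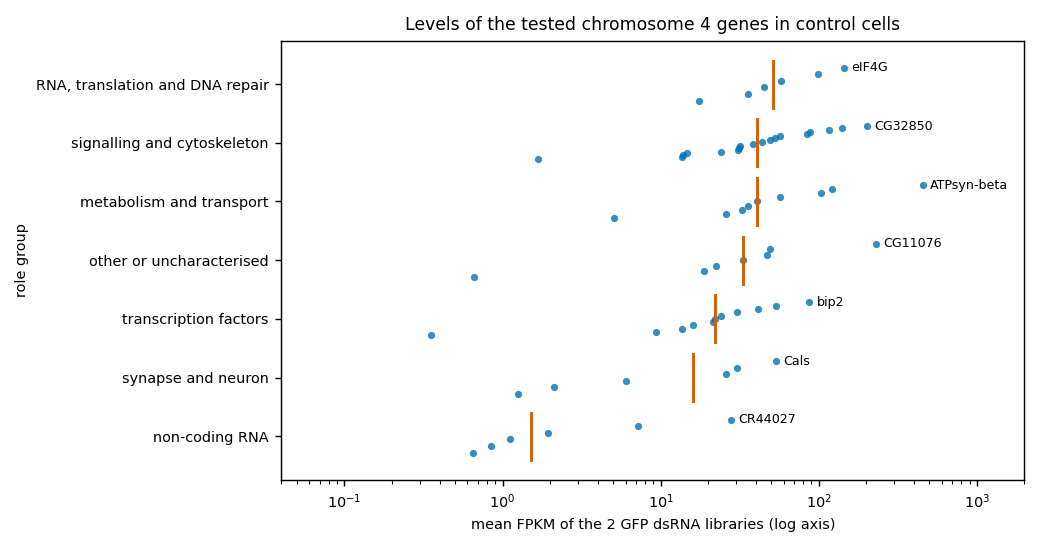
Mean FPKM of the 2 control libraries (log axis) for the 63 tested chromosome 4 genes, 1 point per gene, in rows by role group, with an orange line at the median of each group and the highest gene named. Genes of translation, signalling and metabolism have group medians above those of the synaptic genes, and the non-coding RNAs have the lowest group median.

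As a description without a test, chromosome 4 had a larger share of its genes above the threshold than the other arms, 67.7% against 48.7% (2L) to 58.3% (X). The median control level of its tested genes was 31.2 FPKM, against 19.0 to 23.8 on the 5 large arms and 38.0 on the scaffolds of pericentric heterochromatin. Its tested genes also carried more deposited transcripts, 6.71 on average against 2.96 to 3.44 on those arms and 4.67 on the heterochromatin scaffolds. Together the members made up 0.536% and 0.515% of annotated FPKM in the control libraries. That share was 0.466% and 0.498% in mip40 RNAi, 0.488% and 0.484% in mip120 RNAi, 0.483% and 0.505% in mip130 RNAi, and 0.573% in E2F2 RNAi. All 6 mip libraries thus lay below both control libraries and the E2F2 library above them. Of the 3948 FPKM summed in the E2F2 library, 387 belonged to snoRNA:CD-24, which was listed at 0 in the other 8 libraries. The higher E2F2 share is therefore not a trait of the members in general.

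Against the GFP control, mip40 RNAi changed 5 chromosome 4 genes, 1 up and 4 down. Of all tested genes 5.69% rose and 3.51% fell, against 1.59% and 6.35% of the members. In mip120 RNAi 6 members rose and 17 fell, which is 9.52% and 27.0% of the members beside 17.6% and 18.9% of all genes. In mip130 RNAi 7 rose and 9 fell, 11.1% and 14.3% beside 19.3% and 16.9%. In E2F2 RNAi 2 rose and 2 fell, 3.17% each beside 9.28% and 2.72%. The mean of the 4 RNAi groups gave 4 that rose and 8 that fell, 6.35% and 12.7% beside 15.2% and 9.75%. The rises include ey in the 3 mip groups and CG33521 in mip120 and mip130, and the mip130 falls include CR44023. These genes entered the test only through libraries where they were high, so they count here as a description. The same filter let genes into the shares of all genes. These comparisons share the same 2 control libraries, so their counts are not independent. In bulk RNA, a change in the number of cells that use a gene and a change of its RNA per cell cannot be told apart. Other scalings moved the split between up and down in some comparisons. With quantile normalization mip40 gave 0 and 4, mip120 3 and 18, mip130 5 and 13 and the mean 0 and 11, while E2F2 stayed at 2 and 2. Of all genes 4.91% rose and 3.83% fell in mip40 under that scaling, 17.0% and 21.1% in mip120, 16.7% and 21.7% in mip130, and 12.8% and 13.5% in the mean. With libraries set to the same annotated sum, mip40 gave 0 and 8, mip120 6 and 16, mip130 4 and 14, E2F2 1 and 5, and the mean 3 and 16. All genes then shifted as well: 4.09% rose and 5.92% fell in mip40, 18.5% and 16.5% in mip120, 15.7% and 22.1% in mip130, 4.09% and 5.85% in E2F2, and 11.2% and 16.7% in the mean. Median-ratio scaling left the splits of mip40, mip120 and E2F2 as they were and gave 7 and 12 in mip130 and 4 and 11 in the mean. Of all genes 18.4% rose and 19.7% fell in mip130 under median-ratio scaling, and 14.03% and 12.03% in the mean.

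Leaving out single libraries also moved these counts. In each fit named here the share of all tested genes past the test was lower too, so the drops are not a trait of the members alone. In mip40 RNAi 0 members fell without either GFP library or without mip40 replicate 2, 2 fell without mip40 replicate 1 or either mip120 library, and 0 rose in every such fit but the one without E2F2. In mip120 RNAi 9 fell without either mip120 library, 3 rose without GFP replicate 2 or mip120 replicate 1, and 2 rose without mip120 replicate 2. In mip130 RNAi 3 fell and 2 rose without GFP replicate 2, 4 fell without mip130 replicate 1, 3 rose without mip130 replicate 2, and 4 rose without either mip120 library. In E2F2 RNAi 0 rose without GFP replicate 2 and 1 fell without either GFP library. Of the calls, 8 of 23 in mip120 RNAi held in each fit that left out 1 library (CG32016, NfI, pho, CG31999, CG1970, Ephrin, myo and PMCA). The same held for 5 of 16 in mip130 RNAi (CG32016, NfI, pho, CG33521 and yellow-h), 1 of 4 in E2F2 RNAi (Caps) and 0 of 5 in mip40 RNAi. The E2F2 call of Caps was never run without its own library, the only one of that group, so its hold does not check that library. CG33521 carries the limit on its entry into the test that is given below. Every other call of a member against GFP lost the threshold without at least 1 library.

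**Figure D2:**
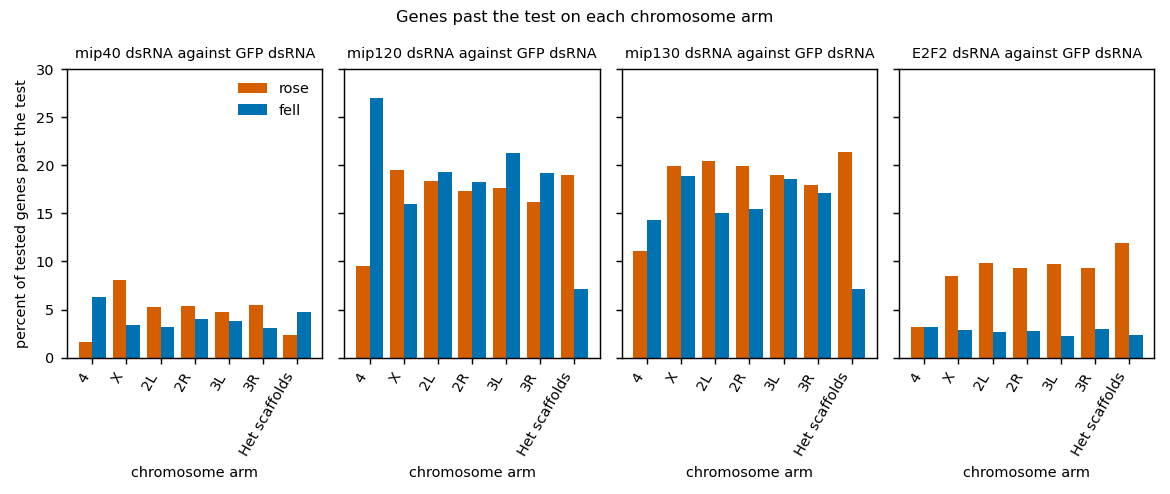
Percent of tested genes past the limma test that rose (orange) or fell (blue) on each chromosome arm, in 4 panels by RNAi group against the GFP control. In mip120 RNAi 27.0% of the chromosome 4 genes fell and 9.52% rose, while the large arms have 15.9% to 21.3% that fell and 16.2% to 19.5% that rose.

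The median log2 change of the members was -0.09 in mip40 RNAi, -0.08 in mip120, 0.00 in mip130 and 0.06 in E2F2, beside 0.01, -0.04, 0.01 and 0.08 over all tested genes. In mip40 RNAi 44 of the 63 members lay below 0, or 69.8%, beside 47.8% of all genes. The members' median relative to all genes in mip40 RNAi was -0.09 in the deposited scaling, -0.10 with quantile normalization and -0.10 with median-ratio scaling. Without a filter on low values, where genes near 0 enter, it was -0.02. No member changed by 1 or more on the log2 scale in mip40 or mip130 RNAi, where 2.97% and 5.85% of all genes did. In mip120 RNAi 1 member did, beside 6.05% of all genes, and in E2F2 RNAi 3 did, 4.76% beside 3.84%, of which 2 were past the test. Since the members were more highly expressed than most genes, the counts were also taken among genes with a mean of at least 10 FPKM, a limit chosen after seeing the data. There 3 of 50 members rose and 16 fell in mip120 RNAi, which is 6% and 32%, beside 17.3% and 21.8% of 5545 genes. In mip130 RNAi 8% rose and 14% fell, beside 18.6% and 19.7%.

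A fall in all 3 mip groups was shared by 2 genes. CG32016 (left end 978632, reverse strand, in the table's coordinates), which encodes the eIF4E transporter 4E-T, had 18.3 and 16.7 FPKM in control cells. It had 11.3 and 12.3 FPKM in mip40 RNAi, 11.2 and 9.74 in mip120, 12.5 and 11.3 in mip130, and 12.8 in the E2F2 library. Every RNAi library lay below both controls. The log2 change was -0.53 ± 0.10 in mip40 (adjusted p = 0.0206), -0.69 ± 0.10 in mip120 (adjusted p = 0.00217) and -0.52 ± 0.10 in mip130 (adjusted p = 0.00741). The mip40 call was lost without either control library and without either mip40 library, with adjusted p up to 0.108. NfI (left end 293129), a nuclear factor I transcription factor, had 9.06 and 9.77 FPKM in control cells and 6.89 and 5.71 in mip40. It had 5.93 and 5.35 in mip120 and 5.19 and 5.60 in mip130. Its level in E2F2 RNAi, 9.08 FPKM, was within the control range. The changes were -0.52 ± 0.11, -0.65 ± 0.11 and -0.70 ± 0.11 (adjusted p = 0.0305, 0.00403 and 0.00358), and the mip40 call was lost without either GFP library or mip40 replicate 2, and narrowly without any mip120 or mip130 library, with adjusted p up to 0.126.

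The opposite direction was shared by ey (left end 718315), a Pax6 transcription factor of eye development. It had 0.371 and 0.337 FPKM in control cells, 1.09 and 1.12 in mip40, 1.33 and 1.18 in mip120, 1.15 and 0.882 in mip130 and 0.573 in E2F2. All 6 mip libraries exceeded the controls by more than the spread within a group. Its log2 changes were 0.64 ± 0.15, 0.73 ± 0.15 and 0.57 ± 0.15 (adjusted p = 0.0446, 0.00939 and 0.0242). Because ey lies below an FPKM of 1 in control cells, it could enter the test only through the RNAi libraries, as could CG33521 and CR43957. The values of these genes are therefore a description. The control mean of CR43956 was also below 1, with 1.70 and 0 FPKM in the 2 control libraries. All 3 ey calls were lost with quantile normalization (adjusted p from 0.101 to 0.601). The mip40 call was lost in 8 of the 9 fits that left out 1 library (adjusted p up to 0.143), the mip120 call without mip120 replicate 1 (0.051), and the mip130 call without either GFP library or mip130 replicate 1 (up to 0.1). Over the 9 libraries, the members with profiles most like that of ey were CG33521 (Pearson r = 0.85), Syt7 (0.84) and Asator (0.72). Those most like CG32016 were CG31998 (0.83), NfI (0.78) and PMCA (0.78).

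**Figure D3:**
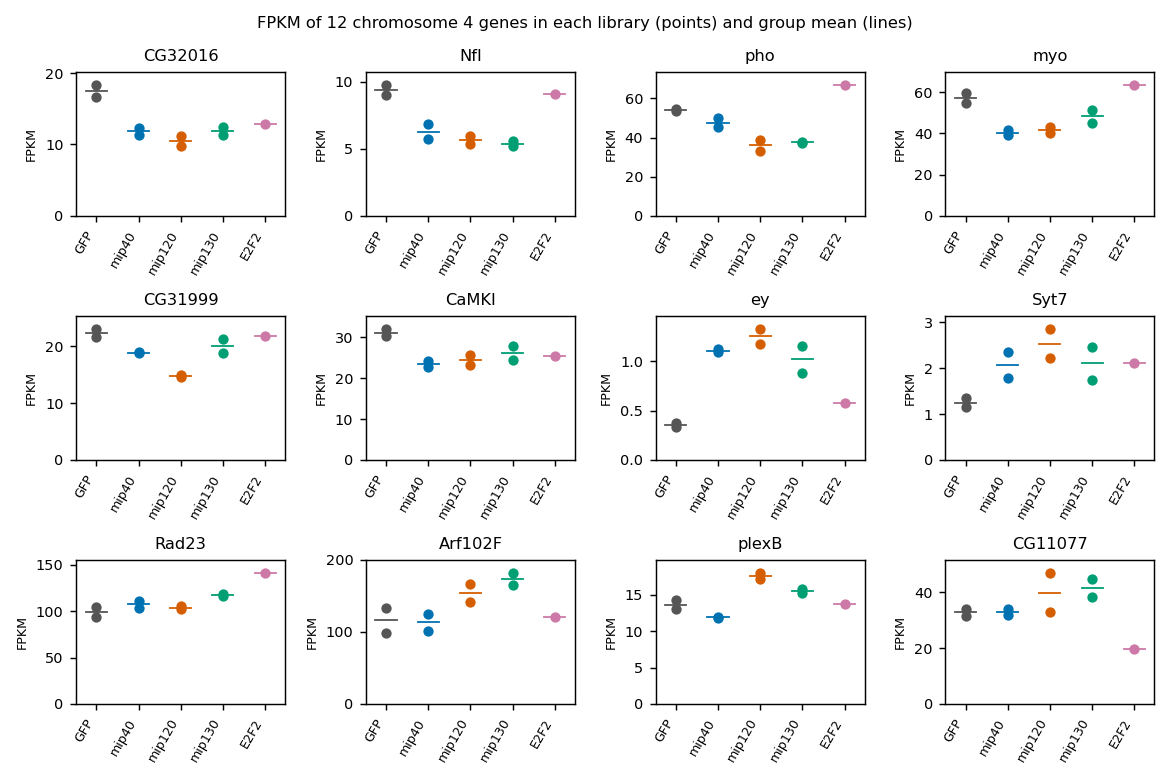
FPKM of 12 chromosome 4 genes in each library (points) with the group mean (line), on linear axes from 0, in 5 groups. CG32016 and NfI are below control in all 6 mip libraries, ey and Syt7 are above control in them, and pho and myo reach their highest value in the E2F2 library.

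Among the 11 tested transcription factors and cofactors, pho (left end 1201994), the DNA-binding Polycomb group protein, fell in mip120 and mip130 RNAi. It had 54.6 and 53.4 FPKM in control cells, 45.4 and 49.9 in mip40, 33.1 and 38.9 in mip120, 37.3 and 37.9 in mip130 and 66.8 in E2F2. The changes were -0.58 ± 0.09 (adjusted p = 0.00317) and -0.51 ± 0.09 (adjusted p = 0.00582). Lin29 (dati), a zinc finger transcription factor, had 22.2 and 22.1 FPKM in control cells, 15.4 and 20.9 in mip40, 29.2 and 29.0 in mip120, 30.5 and 25.3 in mip130 and 11.9 in E2F2. It fell in E2F2 RNAi by 0.84 on the log2 scale (SE 0.18, adjusted p = 0.03). Both mip120 and both mip130 libraries lay above control and the E2F2 library below, but only the E2F2 fall was past the test against GFP, and it was lost without either GFP or either mip120 library (adjusted p up to 0.096). As gene sums, the TFIID subunit gene bip2 (Taf3) and the cofactor Hcf were steady: Hcf ranged only from 37.7 to 44.3 FPKM over the 9 libraries. Single starts of bip2 were not: that at 486357 had 12.8 and 11.8 FPKM in control cells, 0.109 and 0 in mip120 and 41.1 in E2F2. Its start at 487454 had 69.5 and 80.2 in control cells, 74.8 and 73.8 in mip120 and 49.5 in E2F2.

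Of 18 tested genes of signalling and the cytoskeleton, 2 rose and 6 fell in mip120 RNAi, where 17.6% of all genes rose and 18.9% fell. The TGF-beta family ligand genes myo and mav both fell there, and the activin gene Actbeta was too low to test, at no more than 0.410 FPKM in any library. For myo the values were 59.4 and 54.6 FPKM in control cells, 41.6 and 39.2 in mip40, 40.1 and 42.9 in mip120, 45.2 and 51.3 in mip130 and 63.4 in E2F2. The myo changes were -0.49 ± 0.08 in mip40 and -0.45 ± 0.08 in mip120 (adjusted p = 0.0171 and 0.00691), the first lost without either GFP or either mip40 library (adjusted p up to 0.091). For mav the values were 31.3 and 31.9 in control cells, 25.3 and 25.1 in mip120 and 22.4 and 24.7 in mip130, with changes of -0.32 ± 0.10 and -0.41 ± 0.10 (adjusted p = 0.0404 and 0.0168), both lost without either GFP library, with adjusted p up to 0.149 and 0.085 when single libraries were left out. Ephrin, the ligand of the Eph receptor, fell from 45.1 and 42.0 FPKM to 30.6 and 32.0 in mip120 RNAi (-0.46 ± 0.09, adjusted p = 0.00809). Its receptor gene Eph, with 40.3 and 36.4 in control cells and 33.2 and 33.2 in mip120 RNAi, was not past the test. The kinase gene CaMKI fell in mip40 and mip120 RNAi, by 0.39 and 0.33 on the log2 scale, from 32.1 and 30.3 FPKM to 24.3 and 22.8 and to 23.3 and 25.8. These calls were lost without either GFP library, with adjusted p up to 0.169 and 0.129.

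The 2 plexins, receptors of semaphorins, moved apart in mip120 RNAi. The plexA level went from 23.3 and 24.7 FPKM to 19.1 and 20.7 (-0.26 ± 0.07, adjusted p = 0.0252), and that of plexB from 13.04 and 14.26 to 17.2 and 18.0 (0.34 ± 0.07, adjusted p = 0.00873). CG2219 (Arl4, a small GTPase) also rose there, by 0.33 ± 0.07, from 54.4 and 51.9 to 68.4 and 65.7 FPKM. Arf102F (Arf4), another GTPase, rose in mip130 RNAi from 133 and 98.9 to 165 and 182 FPKM (0.59 ± 0.17, adjusted p = 0.0334), with control libraries that differed widely from each other. That call was lost without GFP replicate 2 or either mip130 library (adjusted p up to 0.158). CG32850 (Rnf11) fell in mip120 and mip130 RNAi, by 0.31 and 0.42, from 188 and 217 to 163 and 162 and to 156 and 146 FPKM. Of the 63 tested genes, Dyrk3 and CaMKII varied least: their highest library exceeded the lowest by a factor of 1.13 in each.

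Among the 6 tested genes of RNA, translation and repair, gw (the GW182 protein of microRNA silencing) fell in mip120 and mip130 RNAi. Its values were 55.6 and 59.1 FPKM in control cells, 47.3 and 45.0 in mip120 and 45.4 and 47.6 in mip130, changes of -0.31 ± 0.06 and -0.30 ± 0.06 (adjusted p = 0.00865 and 0.0107). Rad23, of nucleotide excision repair, had 105 and 93.4 in control cells, 117 and 118 in mip130 and 141 in E2F2, and rose in these groups by 0.25 ± 0.07 and 0.51 ± 0.09 (adjusted p = 0.0357 and 0.0161). Both Rad23 calls missed the threshold without GFP replicate 2 (adjusted p = 0.167 and 0.053), and the mip130 call also without any mip120 or mip130 library.

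Of the 9 tested genes of metabolism and transport, 4 fell in mip120 RNAi, beside 18.9% of all genes. CG1970 (ND-49), a subunit of mitochondrial complex I, fell from 130 and 113 to 84.4 and 89.6 FPKM (-0.47 ± 0.09, adjusted p = 0.0062), and the plasma membrane calcium pump PMCA from 103 and 105 to 82.9 and 85.7 (-0.30 ± 0.05, adjusted p = 0.00619). CG32000 (anne, a P5 type ATPase) fell by 0.31. In mip130 RNAi yellow-h rose from 5.63 and 4.55 to 7.65 and 8.46 FPKM (0.58 ± 0.11, adjusted p = 0.00773). Of the uncharacterised genes, CG31999 fell in mip120 RNAi from 23.1 and 21.7 to 14.7 and 15.0 (-0.56 ± 0.07, adjusted p = 0.00189), and CG31998 fell in mip120 and mip130 RNAi by 0.25 and 0.21. CG33521 had 0.583 and 0.747 FPKM in control cells, 1.43 and 1.20 in mip40, 1.55 and 1.56 in mip120, 1.69 and 1.81 in mip130 and 0.556 in E2F2. It rose in mip120 and mip130 RNAi, by 0.62 ± 0.14 and 0.72 ± 0.14 (adjusted p = 0.013 and 0.00806), with the same limit on its entry into the test as ey. CG1674 rose in mip130 RNAi by 0.28 ± 0.08 (adjusted p = 0.0337), and pncr013:4 fell in mip120 RNAi by 0.37 (adjusted p = 0.043).

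In the 6 tested synaptic genes, 2 rose in mip120 RNAi, beside 17.6% of all genes. Caps (Cadps), which promotes calcium-dependent secretion, had 27.6 and 23.9 FPKM in control cells, 32.1 and 24.1 in mip40, 40.0 and 39.7 in mip120, 34.3 and 35.6 in mip130 and 10.0 in E2F2. It rose by 0.61 ± 0.13 in mip120 (adjusted p = 0.0125) and 0.43 ± 0.13 in mip130 (adjusted p = 0.0444) and fell by 1.28 in E2F2 RNAi (SE 0.16, adjusted p = 0.00647), to 38.9% of the control level. The synaptotagmin gene Syt7 rose in mip120 RNAi from 1.34 and 1.15 to 2.85 and 2.21 FPKM (0.65 ± 0.17, adjusted p = 0.0271). The mip130 call of Caps and the mip120 call of Syt7 were lost without either GFP library (adjusted p up to 0.209 and 0.135). Of the neuron markers, elav was the one at an FPKM of 1 or more in control cells, with 26.2 and 32.7.

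**Figure D4:**
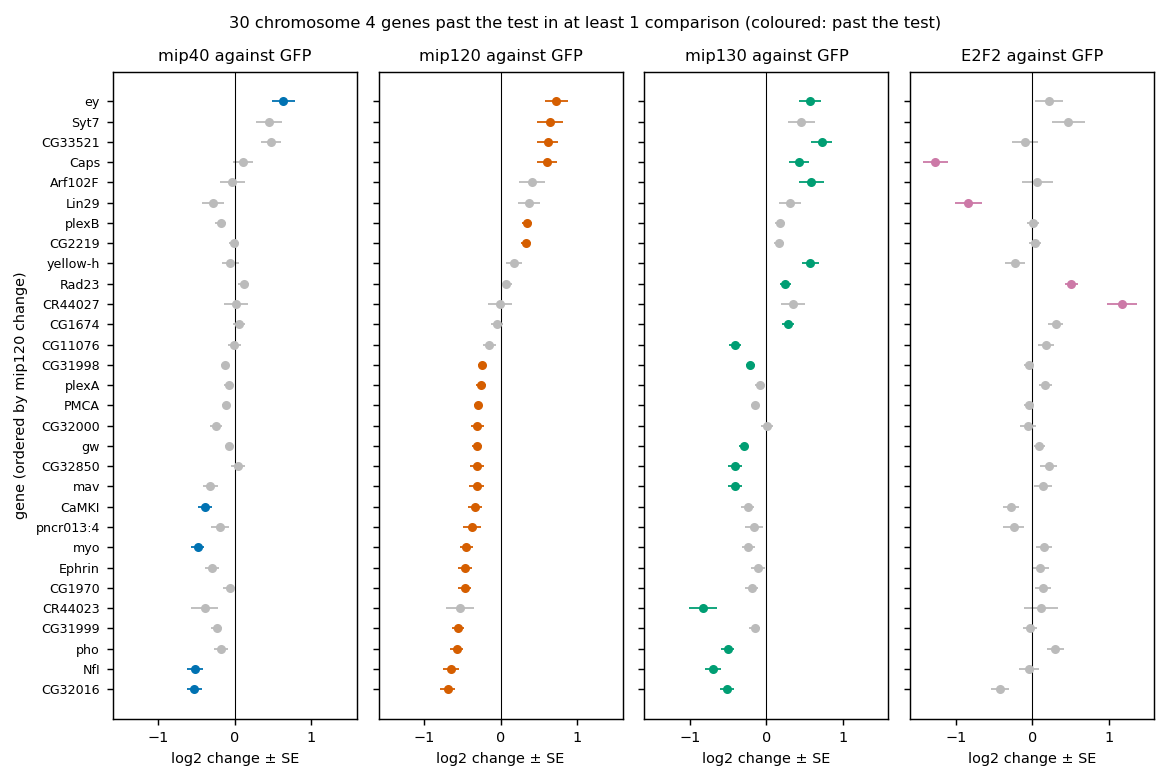
Log2 change ± SE against the GFP control for 30 of the 31 chromosome 4 genes past the limma test in at least 1 of 4 comparisons, in panels by RNAi group and ordered by the change in mip120 RNAi. Points past the test are coloured; the falls of CG32016 and NfI recur in the 3 mip panels, and Caps, Lin29 and CR44027 stand out in the E2F2 panel.

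The E2F2 calls of Caps and Lin29 rest on assembled isoforms that were not in the annotation. For Caps, 1 new isoform with a start at 1235609 held most of the signal: 23.0 and 20.0 FPKM in control cells, 35.1 and 34.6 in mip120 RNAi, 29.7 and 30.2 in mip130 and 7.66 in E2F2. Known Caps transcripts summed to at most 2.54 FPKM. With known transcripts only, the E2F2 change was positive, at 1.13 (adjusted p = 0.301). For Lin29, a new isoform starting at 408948 had 17.8 and 17.6 FPKM in control cells, 25.0 and 25.5 in mip120 and 8.83 in E2F2, and with known transcripts only the fall was no longer past the test. The calls of NfI and CG32016 were also lost with known transcripts only. The CG32016 changes were then -0.63 in mip40, -0.44 in mip120 and -0.47 in mip130 (adjusted p = 0.164, 0.181 and 0.16), and those of NfI -0.08, -0.27 and -0.14 (adjusted p = 0.851, 0.325 and 0.623). For CG32016 the same start at 979018 supplied nearly all signal, 18.3 and 16.3 FPKM in control cells, but its known isoforms traded values between libraries, for example 6.35 and 14.2 FPKM in the 2 control libraries.

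**Figure D5:**
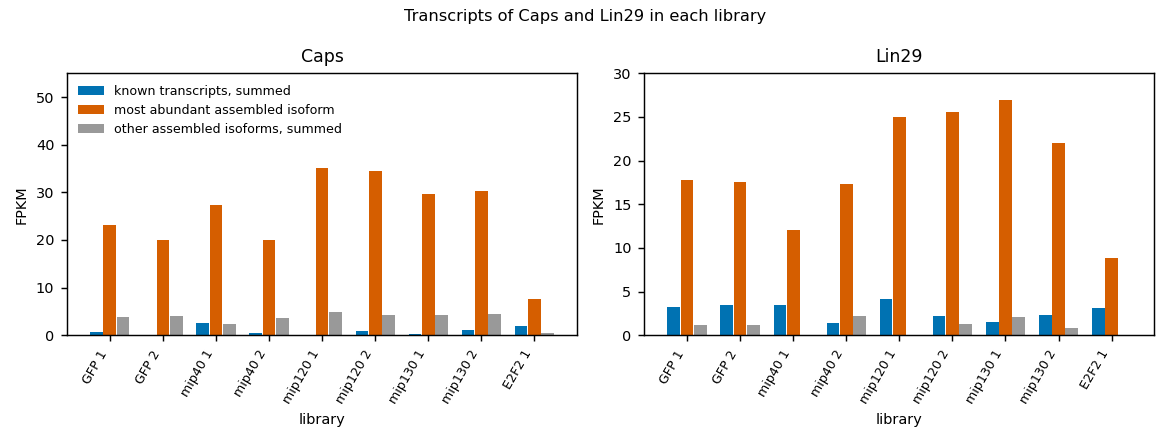
FPKM in each library of the known transcripts (summed, blue), the most abundant new isoform (orange) and other new isoforms (summed, grey) of Caps and Lin29, as bars from 0. The new isoform makes up most of both genes and is lowest in the E2F2 library.

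Of the 14 non-coding members, 6 were tested. CR44027, annotated as antisense, had 29.9 and 25.7 FPKM in control cells and 63.9 in the E2F2 library, a rise of 1.18 ± 0.19 (adjusted p = 0.014). On the other strand, 198 bp away, lies a minor Lin29 start at 415948, with 2.42 and 2.89 FPKM in control cells. The main Lin29 start, at 408948, is farther away. An NfI start at 296995, with 2.26 and 1.86 FPKM in control cells, lies 154 bp from CR44023. The NfI start with the most control signal, at 293251, is farther away. CR44023 had 0.968 and 1.26 FPKM in control cells and 0.0868 and 0.293 in mip130 RNAi. It reached an FPKM of 1 only in GFP replicate 2 and in the E2F2 library, so it entered the test through libraries where it was high, and these values are a description. No source used here gives the strand setting of the libraries, so reads of overlapping genes on opposite strands cannot be told apart. CG11076 has such an overlap, since its most abundant isoform has its start at 1053540, beyond the ATPsyn-beta start at 1052490 on the other strand. CG11076 fell in mip130 RNAi by 0.42. CG1970 and Ephrin, on opposite strands, both fell in mip120 RNAi, while myo and its neighbour ey moved in opposite directions. The CG1970 start at 591416, with nearly all control signal, fell from 130 and 113 to 80.2 and 76.6 FPKM in mip120 RNAi. A CG1970 start at 592180, 201 bp from that of Ephrin, had 0.00656 and 0.00642 FPKM in control cells. It had 4.28 and 12.9 FPKM in mip120 RNAi.

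Differences between RNAi groups were tested directly. Between mip120 and mip40 RNAi 14 members differed, 5 higher and 9 lower in mip120, or 22.2% beside 25.5% of all genes. Highest in that contrast were Lin29 (0.66 ± 0.14, adjusted p = 0.0187) and plexB (0.53 ± 0.07, adjusted p = 0.00377). ATPsyn-beta was lower by 0.41 ± 0.10 (adjusted p = 0.0277), with 374 and 357 FPKM in mip120 and 463 and 510 in mip40. Between mip130 and mip40 9 members differed (14.3% beside 25.0%), led by yellow-h at 0.63 ± 0.11 (adjusted p = 0.0127). Between mip130 and mip120 only CG31999 differed, higher in mip130 by 0.40 ± 0.07 (adjusted p = 0.0262), beside 8.32% of all genes. E2F2 RNAi differed from the mean of the 3 mip groups at 22 members, 17 higher and 5 lower, or 34.9% beside 29.2%. Its 1 library has no replicate check. The largest were Caps (-1.66 ± 0.14, adjusted p = 0.000842), CR44027 (1.06 ± 0.17, adjusted p = 0.00646), Lin29 (-0.98 ± 0.15, adjusted p = 0.00634) and CG11077 (-0.90 ± 0.18, adjusted p = 0.012), which had 19.7 FPKM in E2F2 and 31.8 to 46.9 in the mip libraries. pho was higher in E2F2 by 0.72 ± 0.09 (adjusted p = 0.00346) and myo by 0.54 ± 0.09 (adjusted p = 0.00722).

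Genes for proteins that act on heterochromatin or on whole chromosomes, which lie outside the members, were read from the same fit. This list, called the heterochromatin genes below, includes Pof and the dosage compensation genes msl-2 and mle. Of 27, 2 rose and 7 fell in mip120 RNAi, 1 rose and 9 fell in mip130 RNAi, and 1 rose and 1 fell in mip40 RNAi. Of all tested genes 17.6% rose and 18.9% fell in mip120, 19.3% and 16.9% in mip130, and 5.69% and 3.51% in mip40. In E2F2 RNAi limma called 0 of them, with 4 at an unadjusted p below 0.05. HP1b, a paralogue of HP1a, fell in every mip group: it had 77.5 and 77.0 FPKM in control cells, 52.9 and 53.3 in mip40, 46.2 and 52.3 in mip120, 41.6 and 36.7 in mip130 and 62.3 in E2F2. The changes were -0.53 ± 0.08, -0.64 ± 0.08 and -0.97 ± 0.08 (adjusted p = 0.0122, 0.00174 and 0.000409). The acetyltransferase gene mof rose in the same groups, by 0.36, 0.43 and 0.43. The mip40 call of HP1b was lost without any GFP or mip40 library (adjusted p up to 0.072), and that of mof without either GFP library or mip40 replicate 1 (adjusted p up to 0.084). Pof, which binds chromosome 4, had 12.8 and 12.4 FPKM in control cells and 15.6 and 16.8 in mip120 RNAi, a rise of 0.34 ± 0.07 (adjusted p = 0.012) that was lost without GFP replicate 2 or mip120 replicate 2 (adjusted p up to 0.081). The kinase gene JIL-1 fell in mip120 and mip130 RNAi by 0.44 and 0.45, and egg fell in mip120 RNAi by 0.23, a call lost without any GFP, mip120 or mip130 library (adjusted p up to 0.174). The gene for HP1a itself was not past the test in any group: it had 616 and 672 FPKM in control cells and ranged from 531 to 784 over the RNAi libraries. Whether these changes and those on chromosome 4 are linked was not tested.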

How the data were processed

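The authors deposited FPKM for 37161 transcripts in 9 RNA libraries, per the file headers. The submitters' processing notes name TopHat2 2.0.12, Bowtie 1.1.1, Cufflinks and Cuffnorm. No source used here gives the build, annotation release, tool settings or strand setting, so positions are as in the table. RNA was oligo-dT selected and read as pairs of 100 bp, per the labels. The 10 chromatin and DNA samples and 4 deposited columns of means per group were left aside.

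FPKM were summed per gene over known transcripts, new isoforms and other overlaps. A gene entered the test with an FPKM of 1 or more in 2 libraries or more, which 7835 genes reached. The test was run in R 4.3.3 with limma 3.58.1 on log2(FPKM + 1), a scale that understates changes of low genes. All 9 libraries entered 1 model of 5 groups, moderated with an intensity trend, and p-values were adjusted by Benjamini-Hochberg with a threshold of 0.05. The E2F2 group borrows the spread of the others. Names came from RefSeq tables: 55 members by current symbol, 37 by older names, 1 not found.

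Members and lists were chosen with earlier results of these data known. Named genes were the largest non-overlapping changes per comparison, the highest levels, up to 4 called members per role group, calls shared by the mip groups, the largest differences between RNAi groups, called heterochromatin genes, targets and neighbours. Genes outside that rule (among them ci, toy, bt, Hcf, bip2, Dyrk3, Eph and the gene for HP1a) were added as background levels after their values were seen. The promoter comparison was not run, and 1 member that enters the counts is not reported here by name.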

Additional observations from a re-analysis of the deposited data

Results flagged for a closer look

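On chromosome 4, 11 transcripts of no annotated gene were left out of the comparisons, and 5 of them had a mean of at least 1 FPKM in an RNAi group with every library above both controls. The transcript starting at 202737 on the reverse strand had 15.5 and 16.2 FPKM in control cells. Its mean was 50.3 FPKM in mip120 RNAi (47.4 and 53.3) and 25.6 in mip130 RNAi (32.1 and 19.1). The other 4 were low. Those starting at 215571, 427190 and 432155 had means of 1.61, 1.76 and 1.52 FPKM in mip40 RNAi, and that starting at 444073 had 1.28 in the E2F2 library. That count looked for rises only, and falls occurred too. The transcript starting at 437010 had 2.29 and 3.01 FPKM in control cells and 0.267 to 1.44 in the mip libraries. That starting at 427938 had 0.993 and 0.902 FPKM in control cells, 0.349 and 0.482 in mip120 and 0.0971 and 0.269 in mip130. The share of unannotated transcripts elsewhere that meet the same rule is not given here. No test was run on these transcripts.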

How the results depend on the processing

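For the 130 named changes, each run under 17 to 21 alternatives, direction was kept except with known transcripts only, where 8 reversed: Caps in E2F2 (1.13), in mip120 minus mip40 (-0.72) and in E2F2 minus the mip groups (0.73), Lin29 in mip130 minus mip40 (-0.18) and in E2F2 minus the mip groups (0.28), eIF4G in mip120 minus mip40 (0.48), CG11076 in mip130 minus mip40 (0.091) and G9a in mip130 (0.12). The cause was not tested. Annotated-sum scaling moved the median of all genes in E2F2 RNAi from 0.08 to -0.08. Counts of members that rose or fell moved as follows. For mip40, 2 rose with no filter or no trend and 0 with FPKM of at least 5, mean of at least 1, quantile, annotated-sum scaling, the comparison's groups only or the replicate block; 8 fell with annotated-sum scaling, 2 with known transcripts or the replicate block and 0 with groups only. For mip120, 3 rose with FPKM of at least 5 or quantile, and 9 fell with known transcripts. For mip130, 4 rose with annotated-sum scaling or groups only, and 14 fell with annotated-sum scaling and 4 with known transcripts. For E2F2, 1 rose with annotated-sum scaling, 4 with known transcripts and 0 with groups only; 5 fell with annotated-sum scaling, 0 with groups only and 1 with the replicate block. For the mean, 1 rose with FPKM of at least 5 and 0 with quantile. In the mean 16 fell with annotated-sum scaling and 3 with known transcripts or the replicate block. The shares of all genes moved too. With groups only, 1.8% of all genes rose and 0.6% fell in mip40, and 0.319% and 0.0766% in E2F2. The counts of 0 members there are thus not a trait of the members alone. With known transcripts 15.4% of all genes fell in mip120, 13.5% in mip130 and 7.11% in the mean, and 7.5% rose in E2F2. Members that differed between mip120 and mip40 numbered 8 with quantile or the replicate block, 9 with annotated-sum scaling and 7 with known transcripts or groups only. Between mip130 and mip40 they numbered 4 with groups only and 5 with the replicate block. Between mip130 and mip120 they numbered 2 with no filter, FPKM of at least 5 or median-ratio scaling, 4 with quantile and 0 with known transcripts, groups only or the replicate block. Between E2F2 and the mip groups they numbered 13 with annotated-sum scaling or the replicate block. Of the heterochromatin genes, called counts were 1 in mip40 with groups only; 5 with known transcripts and 4 with groups only or the replicate block in mip120; 5 with no filter and 4 with groups only in mip130; and 1 with annotated-sum scaling or known transcripts in E2F2.

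The replicate numbers share only a number: differences between replicates correlated at -0.13 to 0.02 between groups, so the replicate block is an alternative only.

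Leaving out each library in turn gave 0 to 1 risen and 0 to 4 fallen members in mip40, 2 to 7 and 9 to 17 in mip120, 2 to 7 and 3 to 9 in mip130, 0 to 3 and 1 to 2 in E2F2, and 0 to 4 and 1 to 5 in the mean. The falls in mip120 were 9 without either mip120 library, and the falls in mip130 were 3 without GFP replicate 2 and 4 without mip130 replicate 1. The falls in mip40 were 0 without either GFP library or without mip40 replicate 2. Differences numbered 2 to 14 (mip120 and mip40), 0 to 10 (mip130 and mip40), 0 to 1 (mip130 and mip120) and 18 to 25 (E2F2 and the mip groups). Called heterochromatin genes numbered 0 to 2, 3 to 9, 4 to 10, 0 to 0 and 2 to 4 for mip40, mip120, mip130, E2F2 and the mean. The only E2F2 library was kept in every fit of the E2F2 contrast. In the fits with the lowest counts of risen or fallen members against GFP, the share of all tested genes past the test was also lower than in the main fit. Depth is unknown, and 30 of the 93 members did not meet the filter for the test.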
